A study of Mus musculus with 12 samples.

Results

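Genes of the oxygen-sensing pathway built around the hypoxia-inducible factors (HIF) were followed through RNA-seq of mouse haploid embryonic stem cells (ESCs) with and without a knockout (KO) of Etl4. The group comprised 35 genes: 4 HIF subunit genes, 5 genes of oxygen sensing and HIF turnover, and 26 known HIF target genes outside glycolysis. All 35 were found among the 24421 gene symbols of each count table. In cells with enough oxygen, prolyl hydroxylases modify the HIF alpha subunits, the VHL protein then binds them, and a ubiquitin ligase marks them for destruction. When oxygen is scarce the alpha subunits escape, pair with ARNT and bind short DNA motifs (hypoxia response elements) near genes that supply oxygen, remodel mitochondria and modify collagen. This control acts mainly on HIF protein, which RNA-seq does not measure; several of the targets, including prolyl hydroxylase genes, are commonly read as a record of HIF activity.

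The study compared Etl4 KO with wild-type (WT) androgenetic haploid ESCs, cells with a single chromosome set of paternal origin, on a C57BL/6 background, and its title concerns a screen in which loss of Etl4 stabilised haploidy. The 12 libraries formed 5 groups: OdG Etl4 KO line 1 (n = 2), OdG Etl4 KO line 2 (n = 2) and OdG WT (n = 2) from the parental line OdG, and EG1 Etl4 KO (n = 3) and EG1 WT (n = 3) from the parental line EG1. The labels give no culture conditions, no oxygen level, no cell-cycle or ploidy sort, and no description of the edit, and they leave unsaid whether a KO line is 1 clone. Separate cultures are not stated for the replicates either, and the p-values then rest on a spread between libraries that could be technical alone. Levels are CPM (counts scaled to library size), scaled once over all 12 libraries, and each fold change is KO over WT from edgeR's quasi-likelihood test with Benjamini-Hochberg adjustment over all genes tested; a gene was called at an adjusted p under 0.05.

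Total counts ran from 16110028 to 19706599 per library, so that 1 CPM stood for 15.9 to 19.6 counts. RNA of Etl4 itself was at 50.6% of WT in OdG KO and at 50.2% in EG1 KO (log2 -0.98 ± 0.034 SE, adjusted p = 1.2e-13, and log2 -0.99 ± 0.036 SE, adjusted p = 7.8e-20), with transcript still counted in every KO library; where the edit lies is not given, so these counts check RNA only. The 10 ESC markers were expressed in every group. Of these, 9 were higher and 1 lower in OdG KO (of all genes tested, 29.4% were higher and 30.5% lower), and 2 were higher and 1 lower in EG1 KO (against 3.6% and 4.06% of all genes). The fibroblast genes Dcn, Lum, Postn and Col3a1 had at most 9 counts in any group. These 4 were picked from a list of 12, and other markers of that list were expressed. The 12 fibroblast markers summed to 123 to 132 CPM in OdG KO line 1 and 173 to 179.6 in line 2, against 113 to 119.7 in OdG WT, and to 152 to 164 CPM in EG1 KO, against 146 to 147 in EG1 WT. Vim, which ESCs also express, made up 79.0 CPM of this in line 1 and 149 in line 2, against 58.1 in OdG WT. Of 8 fibroblast markers tested, 3 were lower and 1 higher in OdG KO, and of 6 tested 1 was higher in EG1 KO. In line 2 alone, 3 of the 8 were at least 2-fold lower and 1 at least 2-fold higher. The 7 trophoblast markers summed to 234 to 240.1 CPM in line 1 and 142 to 150.4 in line 2, against 192 in both OdG WT libraries, and to 19.1 to 23.3 CPM in EG1 KO, against 15.5 to 17.2 in EG1 WT, with 4 lower and 1 higher of 6 tested in OdG KO and 1 higher of 5 in EG1 KO. The 7 primitive endoderm markers summed to at most 12.7 CPM in any library (2 lower of 6 tested in OdG KO). The 6 erythroid and endothelial markers summed to 221 to 224 CPM in line 1 and 162 to 165 in line 2. In OdG WT their sum was 230 to 236 CPM, in EG1 KO 214 to 216 and in EG1 WT 205 to 210. Of these markers Hba-a1 and Hbb-bt had 0 counts in every library, and 1 was lower and 1 higher of 4 tested in OdG KO. Their part in the results on HIF genes was not tested.

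Positions are those of mm10 (GRCm38) throughout. Promoter sequences show where the core of the hypoxia response element, A or G followed by CGTG, lies in members that moved in these cells. The 250 bases before the start site are given, 5′ to 3′ on the gene's own strand, from RefSeq (GRCm38.p6, the assembly of the mm10 build named for the tables), for 6 members with falls in OdG KO of more than 2-fold and for Hif1a, which rose there; capitals mark every ACGTG or GCGTG on either strand, so that CACGT and CACGC are the same motifs read from the other strand, and a run of CACGTG holds ACGTG on both strands.
Adm (chr7:110627407-110627656, plus strand): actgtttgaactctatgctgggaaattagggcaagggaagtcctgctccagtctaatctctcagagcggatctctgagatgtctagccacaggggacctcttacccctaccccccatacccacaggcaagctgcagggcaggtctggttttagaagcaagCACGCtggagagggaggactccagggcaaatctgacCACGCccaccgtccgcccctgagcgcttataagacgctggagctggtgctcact
P4ha2 (chr11:54100674-54100923, plus strand): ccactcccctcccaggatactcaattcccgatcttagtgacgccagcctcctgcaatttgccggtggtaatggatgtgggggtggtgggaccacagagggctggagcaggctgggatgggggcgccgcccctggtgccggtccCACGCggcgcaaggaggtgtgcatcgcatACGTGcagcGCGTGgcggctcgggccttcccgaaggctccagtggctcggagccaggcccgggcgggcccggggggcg
Ero1l (chr14:45318573-45318822, minus strand): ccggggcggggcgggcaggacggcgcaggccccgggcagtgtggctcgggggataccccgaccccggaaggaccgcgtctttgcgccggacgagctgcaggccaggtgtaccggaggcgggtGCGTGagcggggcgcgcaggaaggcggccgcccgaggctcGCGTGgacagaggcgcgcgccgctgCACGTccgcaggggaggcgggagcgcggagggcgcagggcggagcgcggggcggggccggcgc
Bnip3 (chr7:138909507-138909756, minus strand): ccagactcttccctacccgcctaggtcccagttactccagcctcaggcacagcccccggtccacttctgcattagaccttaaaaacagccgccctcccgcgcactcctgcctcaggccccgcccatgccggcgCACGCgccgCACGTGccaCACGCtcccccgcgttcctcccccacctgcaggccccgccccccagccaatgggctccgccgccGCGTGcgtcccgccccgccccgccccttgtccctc
Fam162a (chr16:36071562-36071811, minus strand): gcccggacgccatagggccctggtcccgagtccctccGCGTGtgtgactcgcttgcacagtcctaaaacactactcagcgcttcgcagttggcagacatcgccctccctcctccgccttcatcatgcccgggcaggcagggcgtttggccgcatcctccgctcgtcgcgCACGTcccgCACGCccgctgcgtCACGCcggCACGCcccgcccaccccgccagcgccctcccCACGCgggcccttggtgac
Egln1 (chr8:124949255-124949504, minus strand): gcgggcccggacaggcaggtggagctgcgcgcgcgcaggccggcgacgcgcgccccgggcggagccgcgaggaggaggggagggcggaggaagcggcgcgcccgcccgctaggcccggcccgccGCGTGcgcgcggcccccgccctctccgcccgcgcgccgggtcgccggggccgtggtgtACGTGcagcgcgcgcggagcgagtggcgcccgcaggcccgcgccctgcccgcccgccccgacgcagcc
Hif1a (chr12:73907617-73907866, plus strand): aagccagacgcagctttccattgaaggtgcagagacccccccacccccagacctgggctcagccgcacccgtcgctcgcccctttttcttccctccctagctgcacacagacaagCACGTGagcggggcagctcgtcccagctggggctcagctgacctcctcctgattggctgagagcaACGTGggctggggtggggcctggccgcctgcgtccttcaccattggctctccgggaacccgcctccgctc

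In these windows the vasodilator peptide gene Adm held 2 motifs, the collagen hydroxylase gene P4ha2 3, the oxidase gene Ero1l 3, the mitophagy receptor gene Bnip3 5, Fam162a 6 and the prolyl hydroxylase gene Egln1 2. Hif1a held 3, all of them ACGTG. In windows of 300 bases (250 before to 50 after the start), 30 of 39 promoters of the 28 members with an entry contained at least 1 ACGTG or GCGTG on either strand (76.9%), against 43.8% of all 32851 promoters of the same length. At least 2 were found in 53.8% of the members' promoters, against 20.6% of all promoters. Base composition differed too, with a median of 64.3% G and C in the members' promoters, against 52.7% in all promoters, and its part in the motif shares was not tested. Several start sites of 1 gene share sequence, and a match is a run of letters, not a bound site. Hif1an, Vhl and Car12 were the 3 members with an entry and 0 matches, and the members without an entry were Epas1, Bnip3l, Ndufa4l2, Plod2, Kdm4b, Ndrg1 and Bhlhe40. The 6 members printed for their falls were picked without a set rule. Other members with an entry also fell at least 2-fold in OdG KO. In their 300-base windows P4ha1 held 3 motifs, Hif3a and Ddit4 2 each, and Egln3, Car9 and Narf 1 each. Vegfa and Pdk1 held 2 in 1 promoter and 0 in another.

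Some members can share reads with other genes. Exons of 12 members overlap those of another gene in the GENCODE M21 annotation (GRCm38), most of all Ankrd37 with Lrp2bp (22.7% of its exonic bases), Higd1a with an antisense transcript (22.5%), Bnip3 with an antisense transcript (22.3%) and Fam162a with Wdr5b (19.8%). Whether counting used strand is not given in the sources used here, so reads of such pairs cannot be told apart. RefSeq lists 7 pseudogenes named after Mif and 1 each after Vhl and Bnip3l, so their values are uncertain to that extent.

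Most HIF target genes had less RNA in OdG KO than in OdG WT, and the HIF subunit and sensor genes split. In OdG KO, taken as the mean of both lines on the log scale, 31 of 35 members fell and 2 rose, and 18 fell at least 2-fold. Of all 14413 genes tested in the OdG table, 30.5% fell, 29.4% rose and 6.3% fell at least 2-fold. Members were chosen with earlier results of these data known. Here and in the comparisons below, their shares against all genes therefore describe the chosen genes and are no test of the pathway. Of 33 further reported HIF targets tested, a list chosen in the same way, 20 fell and 6 rose in OdG KO. The median log2 fold change of the members was -1.01, against -0.0098 over all genes tested. In 30 members all 4 KO libraries lay below both WT libraries, as they did in 28.9% of all genes. Line 1 had 30 members lower and 2 higher (26.1% and 26.8% of all genes), and line 2 had 29 lower and 1 higher (29.8% and 30% of all genes). At least 2-fold lower were 19 members in line 1 and 15 in line 2 (6.29% and 7.5% of all genes), and 31 members in each line had both KO libraries below both WT libraries (38.9% and 40.7% of all genes). Both lines were set against the same 2 WT libraries. In bulk RNA such as this, fewer cells expressing a gene and less RNA of it per cell cannot be told apart.

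**Figure D1:**
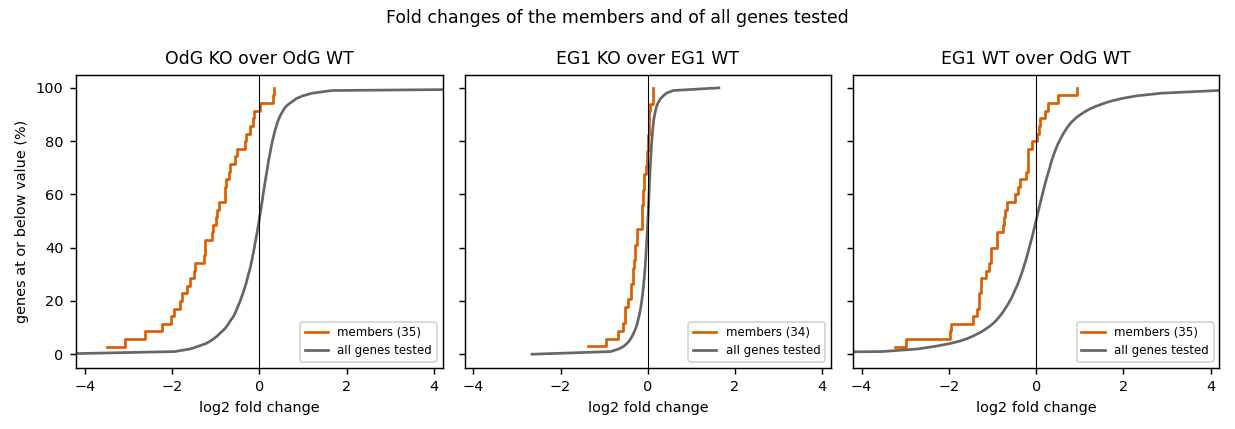
Share of genes (%, vertical axis) at or below each log2 fold change (horizontal axis) for the members (orange steps) and for all genes tested (grey line), in OdG KO over OdG WT, EG1 KO over EG1 WT and EG1 WT over OdG WT. The median of the members was -1.01, -0.14 and -0.73 in these comparisons, while the grey curves cross the middle near 0.

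Among the 4 subunit genes, RNA of the main oxygen-regulated subunit gene Hif1a rose in OdG KO while that of Hif3a fell steeply. Hif1a (chromosome 12, 73901324 to 73947554) was at 155 and 158 CPM in OdG KO line 1 and 169.9 and 164 in OdG KO line 2, against 124 and 133 in OdG WT. All 4 KO libraries lay above both WT libraries, and the fold change was log2 0.34 ± 0.038 SE, adjusted p = 5.8e-07. Epas1, which encodes the second oxygen-regulated alpha subunit, was at 63.8 and 71.8 CPM in OdG KO line 1 and 67.9 and 68.1 in OdG KO line 2, against 69.5 and 64.9 in OdG WT. These values overlapped, and no difference was called (log2 0.020 ± 0.050 SE, adjusted p = 0.75). Hif3a (chromosome 7, 17030993 to 17062427), the third alpha subunit gene, some of whose isoforms restrain the others, was at 4.63 and 7.69 CPM in OdG KO line 1 and 11.1 and 10.5 in OdG KO line 2, against 50.5 and 49.0 in OdG WT. No KO library came near a WT library, and the fold change was log2 -3.03 ± 0.13 SE, adjusted p = 3.7e-12 in line 1 and log2 -2.19 ± 0.11 SE, adjusted p = 3.3e-11 in line 2. Arnt, whose product pairs with every alpha subunit and does not depend on oxygen, was at 95.4 and 94.1 CPM in OdG KO line 1 and 96.6 and 97.8 in OdG KO line 2, against 113 and 109.7 in OdG WT. Its small fall (log2 -0.21 ± 0.035 SE, adjusted p = 7.4e-05) left every KO library below both WT libraries.

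In EG1 KO 1 of the 4 subunit genes was called, Hif3a. Hif1a was at 132, 150.0 and 145 CPM in EG1 KO, against 135, 135 and 123 in EG1 WT, with groups that overlapped (log2 0.12 ± 0.045 SE, adjusted p = 0.12); without EG1 KO replicate 1 it was called higher (log2 0.17, adjusted p = 0.0034). Hif3a, far lower in EG1 than in OdG WT, was at 3.04, 4.53 and 3.56 CPM in EG1 KO, against 5.50, 5.19 and 5.24 in EG1 WT. All 3 KO libraries were below the WT libraries, but its fall (log2 -0.52 ± 0.16 SE, adjusted p = 0.041) lost its call with DESeq2 (adjusted p = 0.13) and in 5 of 6 fits that each left out 1 library, all but that without EG1 KO replicate 2 (adjusted p = 0.09 to 0.16). Epas1 was at 65.8, 68.8 and 61.0 CPM in EG1 KO, against 72.8, 70.0 and 67.2 in EG1 WT, with overlap (log2 -0.10 ± 0.051 SE, adjusted p = 0.24). Arnt was at 76.6, 78.2 and 79.2 CPM in EG1 KO, against 81.4, 85.4 and 84.5 in EG1 WT; its KO libraries were the lower ones, but it was not called (log2 -0.10 ± 0.044 SE, adjusted p = 0.16).

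The 5 sensor genes did not move as a block. Egln1 (chromosome 8, 124908587 to 124949254), the prolyl hydroxylase gene that sets HIF levels in most cells with normal oxygen and is itself a HIF target, was at 41.2 and 43.2 CPM in OdG KO line 1 and 58.7 and 57.2 in OdG KO line 2, against 139 and 139 in OdG WT. Both lines stood far below WT, and line 1 below line 2 (log2 -1.48 ± 0.038 SE, adjusted p = 2.4e-15 in OdG KO). Egln3 (chromosome 12, 54178981 to 54203874), a strongly inducible prolyl hydroxylase gene, was at 27.8 and 25.8 CPM in OdG KO line 1 and 64.3 and 62.7 in OdG KO line 2, against 144 and 138 in OdG WT. Line 1 held less of it than line 2, and the log2 fold change against WT was -2.39 ± 0.053 in line 1 and -1.14 ± 0.047 in line 2. Egln2, a prolyl hydroxylase gene not known as a HIF-induced gene, was at 57.4 and 60.8 CPM in OdG KO line 1 and 49.4 and 44.0 in OdG KO line 2, against 42.3 and 42.9 in OdG WT. It rose in line 1 (log2 0.47 ± 0.065 SE, adjusted p = 8.5e-06), and in line 2 the difference was not called (log2 0.14 ± 0.067 SE, adjusted p = 0.078). For the mean of both lines it was called higher in OdG KO, a call lost with both lines pooled into 1 KO group (log2 0.32, adjusted p = 0.1). With line 2 replicate 2 left out, Egln2 was called higher in line 2 as well (log2 0.22, adjusted p = 0.025).

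Vhl (chromosome 6, 113623994 to 113631634), the substrate receptor of the ubiquitin ligase, was at 67.2 and 72.6 CPM in OdG KO line 1 and 38.8 and 38.9 in OdG KO line 2, against 100.2 and 98.6 in OdG WT. Here the order of the lines was turned round, with line 2 the lower of the pair (log2 -0.51 ± 0.049 SE, adjusted p = 1.4e-07 in line 1 and log2 -1.35 ± 0.053 SE, adjusted p = 7.1e-13 in line 2). Hif1an, an asparagine hydroxylase gene whose product blocks recruitment of coactivators to HIF, was at 64.3 and 70.5 CPM in OdG KO line 1 and 61.2 and 63.9 in OdG KO line 2, against 71.4 and 72.4 in OdG WT. Every KO library lay below both WT libraries. The fall of Hif1an in OdG KO (log2 -0.14 ± 0.046 SE, adjusted p = 0.014) lost its call with DESeq2 (adjusted p = 0.092). The call was also lost with both lines pooled into 1 KO group (adjusted p = 0.15). Without replicate 1 of line 1 or of line 2 the fall shrank to log2 -0.11 and -0.12, and the call was lost.

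In EG1 KO the 2 inducible hydroxylase genes fell and the other sensors were not called. Egln3 was at 49.4, 50.5 and 51.7 CPM in EG1 KO, against 68.3, 64.2 and 74.2 in EG1 WT (log2 -0.45 ± 0.054 SE, adjusted p = 3.2e-07). Egln1 was at 46.1, 45.3 and 46.0 CPM in EG1 KO, against 55.2, 53.9 and 53.3 in EG1 WT (log2 -0.24 ± 0.052 SE, adjusted p = 0.0021). KO and WT libraries were fully separate for both genes. Vhl was at 42.5, 45.3 and 42.5 CPM in EG1 KO, against 38.6, 40.9 and 40.1 in EG1 WT, with every KO library slightly above the WT libraries but no call (log2 0.12 ± 0.057 SE, adjusted p = 0.21). Neither Egln2 nor Hif1an was called, and both overlapped. Egln2 was at 59.1, 50.4 and 51.8 CPM in EG1 KO, against 51.7, 49.9 and 53.0 in EG1 WT (log2 0.059 ± 0.058 SE, adjusted p = 0.61). Hif1an was at 67.3, 60.6 and 64.2 CPM in EG1 KO, against 57.8, 67.1 and 63.7 in EG1 WT (log2 0.024 ± 0.054 SE, adjusted p = 0.86).

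**Figure D2:**
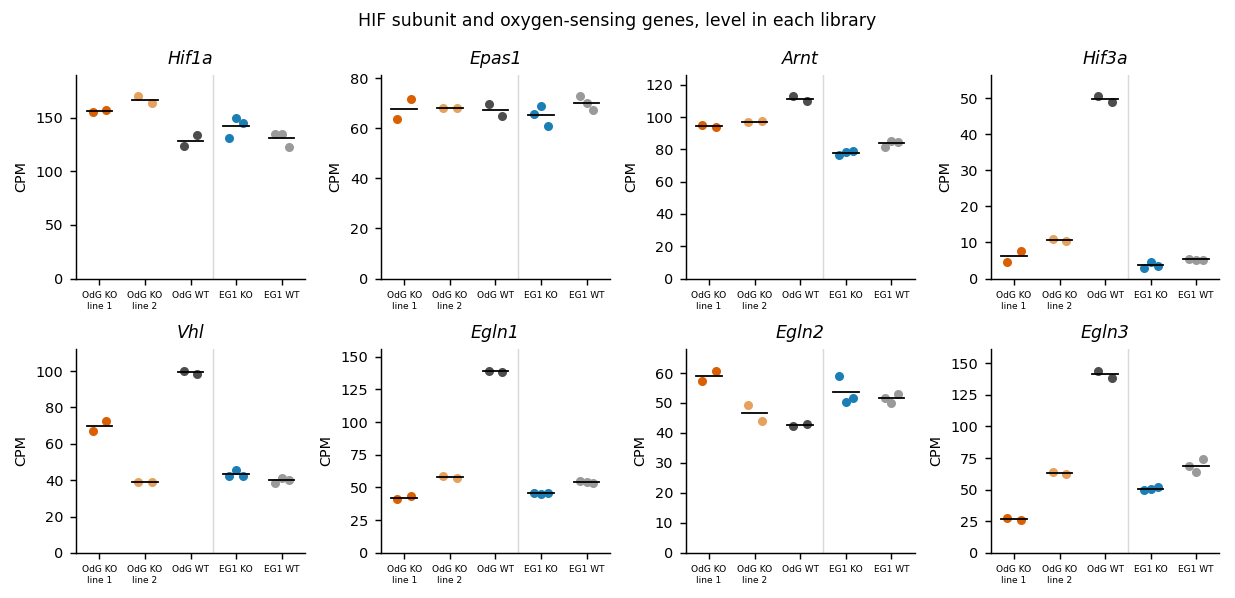
Level of 4 HIF subunit genes and 4 sensor genes (CPM, linear axes from 0) in every library, 1 point each, with a bar at the group mean; the vertical line parts OdG from EG1. OdG WT stood apart for Hif3a, Egln1 and Egln3, Epas1 was nearly level, and Hif1a was highest in OdG KO line 2, with a mean of 167 CPM.

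Of the 26 target genes, edgeR called 25 lower and 0 higher in OdG KO (median log2 -1.08), where 30.5% of all genes were lower and 29.4% higher. At an unadjusted p under 0.05 and by DESeq2, 0 were higher, and DESeq2 called 24 lower. By edgeR, Car12 alone was not called. The largest falls were in genes of mitochondria, vessel signalling and collagen modification. Ndufa4l2 (chromosome 10, 127509274 to 127517154), which encodes a mitochondrial protein reported to lower complex I activity in low oxygen, was at 1.88 and 0.883 CPM in OdG KO line 1 and 2.71 and 2.99 in OdG KO line 2, against 22.9 and 23.1 in OdG WT. Its level in OdG KO was 6.23% of WT in line 1 and 12.6% in line 2, with no overlap (log2 -3.50 ± 0.14 SE, adjusted p = 7.4e-13 in OdG KO). Adm (chromosome 7, 110627657 to 110629820), the adrenomedullin gene, was at 1.02 and 0.820 CPM in OdG KO line 1 and 1.69 and 2.44 in OdG KO line 2, against 12.3 and 11.4 in OdG WT. That left 7.93% of the WT level in line 1 and 17.7% in line 2 (log2 -3.08 ± 0.16 SE, adjusted p = 2.6e-11 in OdG KO). Vegfa, the main angiogenic ligand gene, fell less, to 44.7% in line 1 and 49.3% in line 2 (log2 -1.09 ± 0.035 SE, adjusted p = 5.2e-14 in OdG KO).

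All 7 mitochondrial and mitophagy genes fell in both lines, where 26.1% of all genes fell in line 1 and 29.8% in line 2. Bnip3 (chromosome 7, 138890836 to 138909506), a receptor gene for the removal of mitochondria, was at 73.1 and 79.2 CPM in OdG KO line 1 and 114 and 112 in OdG KO line 2, against 315 and 340.2 in OdG WT. Each line lay well below WT, line 1 lower than line 2 (log2 -1.81 ± 0.038 SE, adjusted p = 1.7e-16 in OdG KO). Fam162a (chromosome 16, 36043844 to 36071561), encoding a mitochondrial protein induced by hypoxia, was at 25.5 and 24.3 CPM in OdG KO line 1 and 25.9 and 27.3 in OdG KO line 2, against 74.8 and 80.9 in OdG WT. Both lines were far below WT (log2 -1.59 ± 0.056 SE, adjusted p = 1.8e-13). Pdk1 (chromosome 2, 71873215 to 71903858), whose kinase holds back pyruvate dehydrogenase, was at 48.1 and 47.8 CPM in OdG KO line 1 and 75.6 and 77.4 in OdG KO line 2, against 147 and 141 in OdG WT. Its fall was deeper in line 1 (-1.58 ± 0.045) than in line 2 (-0.90 ± 0.042). Falls of Bnip3l, the paralog of Bnip3 (-0.67), of Higd1a (-0.79) and of the mitochondrial adenylate kinase gene Ak4 (-0.52) were smaller, with adjusted p of 1e-10, 4.9e-11 and 1.1e-11.

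All 5 genes of collagen modification and oxidative folding fell in both lines as well, against the same shares of all genes. Ero1l (chromosome 14, 45283087 to 45318572; Ero1a in RefSeq), the oxidase gene that feeds disulfide formation in the endoplasmic reticulum, was at 108 and 103 CPM in OdG KO line 1 and 129 and 128 in OdG KO line 2, against 476 and 477 in OdG WT. It kept 22.2% of the WT level in line 1 and 27.1% in line 2 (log2 -2.03 ± 0.030 SE, adjusted p = 1.9e-18 in OdG KO). P4ha2 (chromosome 11, 54100924 to 54131668), a collagen prolyl hydroxylase subunit gene, was at 11.8 and 12.4 CPM in OdG KO line 1 and 16.3 and 16.5 in OdG KO line 2, against 67.4 and 65.6 in OdG WT. Its paralog P4ha1 (chromosome 10, 59323197 to 59373304) was at 70.3 and 73.8 CPM in OdG KO line 1 and 73.0 and 78.2 in OdG KO line 2, against 215 and 206 in OdG WT. Both genes showed every KO library far below WT (P4ha2 log2 -2.23 ± 0.061 SE, adjusted p = 4.9e-15, P4ha1 log2 -1.50 ± 0.037 SE, adjusted p = 1.5e-15). Plod2 (chromosome 9, 92539636 to 92608428), a collagen lysyl hydroxylase gene, was at 16.5 and 15.2 CPM in OdG KO line 1 and 28.6 and 29.8 in OdG KO line 2, against 67.5 and 69.6 in OdG WT. The fall was deeper in line 1 (-2.10 ± 0.073 against -1.22 ± 0.066 in line 2). Plod1 had the other order, with -0.42 ± 0.080 in line 1 and -0.97 ± 0.085 in line 2.

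Targets with roles in transcription, signalling and stress fell in both lines too, 7 of 7 against the same shares of all genes. Mxi1 in line 2 was the least firm. Ndrg1 (chromosome 15, 66929318 to 66969641), a stress-responsive gene, was at 48.0 and 47.4 CPM in OdG KO line 1 and 94.6 and 86.3 in OdG KO line 2, against 259 and 257 in OdG WT. Line 2 held more than line 1, and both were far from WT (log2 -1.97 ± 0.037 SE, adjusted p = 3.2e-17). Bhlhe40 (chromosome 6, 108660629 to 108666925), a transcriptional repressor gene, was at 96.7 and 92.4 CPM in OdG KO line 1 and 116 and 114 in OdG KO line 2, against 258 and 248 in OdG WT. The groups did not overlap (log2 -1.27 ± 0.033 SE, adjusted p = 3.5e-15). Ddit4 (chromosome 10, 59949675 to 59951770), an inhibitor of mTOR signalling, was at 43.6 and 47.0 CPM in OdG KO line 1 and 118 and 113 in OdG KO line 2, against 171 and 173 in OdG WT. Its fall was log2 -1.92 ± 0.046 SE, adjusted p = 1.8e-15 in line 1 and log2 -0.57 ± 0.041 SE, adjusted p = 2e-09 in line 2, and pooling both lines into 1 KO group, which counts their difference as error, ended the call for OdG KO (adjusted p = 0.083). Ankrd37 (-0.97), Narf (-1.01), the cytokine gene Mif (-0.33) and the Myc antagonist gene Mxi1 (-0.32) fell by smaller amounts. The call of Mxi1 was likewise lost with a single KO group (adjusted p = 0.063), and that of Mxi1 in line 2 with DESeq2 (adjusted p = 0.095) and on leaving out OdG WT replicate 2 or either line 2 replicate (adjusted p = 0.057 to 0.077).

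The 3 histone demethylase genes fell by less. Kdm4c (log2 -0.78 ± 0.033 SE, adjusted p = 2.2e-12) and Kdm4b (log2 -0.77 ± 0.043 SE, adjusted p = 7.1e-11) were lower in both lines. Kdm3a fell in line 1 (log2 -0.23 ± 0.043 SE, adjusted p = 0.00028) and was not called in line 2 (log2 -0.035 ± 0.043 SE, adjusted p = 0.5), and its call for OdG KO ended on dropping OdG WT replicate 1 (adjusted p = 0.092) or with a single KO group (adjusted p = 0.25). The 2 carbonic anhydrase genes, whose products set pH at the cell surface, had few counts. Car9 had 8 and 6 counts in line 1 and 15 and 6 in line 2, against 17 and 19 in OdG WT. Its fall (log2 -1.06 ± 0.40 SE, adjusted p = 0.031) lost its call with DESeq2 (adjusted p = 0.15) and in 5 of 6 fits that each left out 1 library, all but that without line 2 replicate 1 (adjusted p = 0.067 to 0.14). Car12 had 28 and 9 counts in line 1 and 12 and 14 in line 2, against 26 and 20 in OdG WT, and no difference was called (log2 -0.57 ± 0.35 SE, adjusted p = 0.17). Without line 1 replicate 1 it was called lower (log2 -1.02, adjusted p = 0.034).

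**Figure D3:**
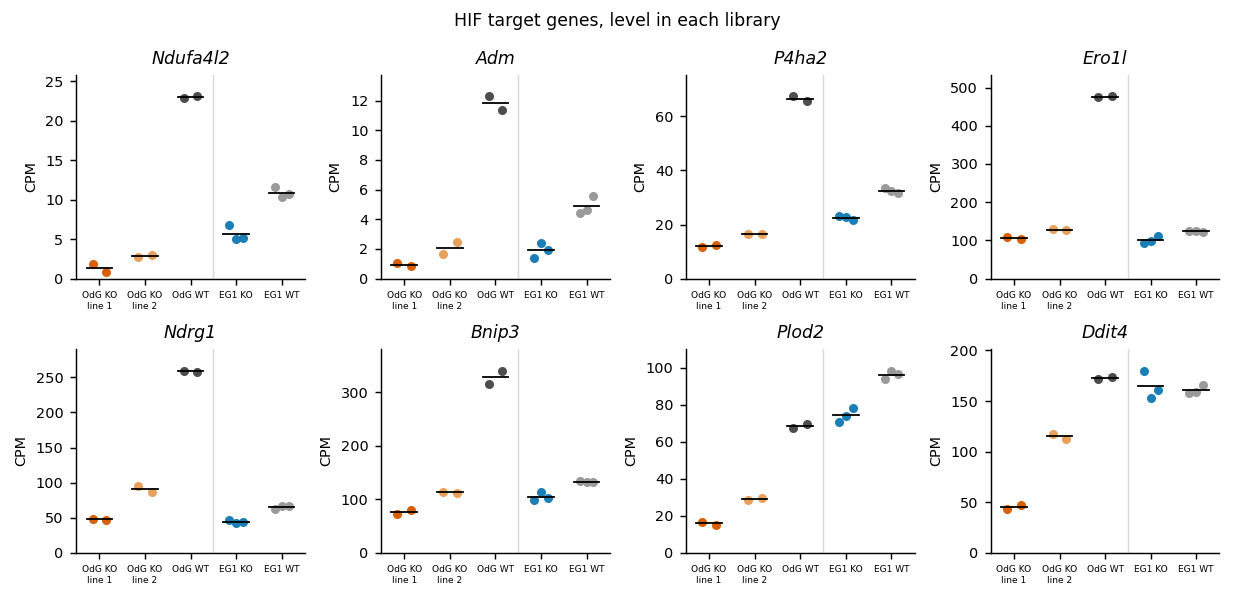
Level of 8 target genes (CPM, linear axes from 0) in every library, 1 point each, with a bar at the group mean; the vertical line parts OdG from EG1. OdG WT was the highest group for Ndufa4l2, Adm, P4ha2, Ero1l, Ndrg1 and Bnip3, whereas Plod2 was highest in EG1 WT and Ddit4 was lowest in OdG KO line 1, with a mean of 45.3 CPM.

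In EG1 KO 15 of the 25 target genes tested fell as well, by smaller amounts. Of 34 members tested (Car9 had too few counts), 18 fell and edgeR called 0 higher (2 at an unadjusted p under 0.05, 0 by DESeq2), where 4.06% of all 14016 genes tested fell and 3.6% rose. Their median log2 fold change was -0.14, against -0.0013 over all genes, and in 21 members the 3 KO libraries were all below the 3 WT libraries (12.3% of all genes). Adm alone fell at least 2-fold, as did 0.314% of all genes. Of 31 further reported HIF targets tested, 4 fell and 2 rose in EG1 KO. All 18 that fell in EG1 KO also fell in OdG KO. That makes 18 of 34 members lower in both (52.9%), against 349 of 13630 genes tested in both tables (2.56%). Another 12 of the 34 fell in OdG KO alone. With so many members lower in OdG KO, most of any 18 would be shared, so the overlap adds little to the EG1 count. These 2 comparisons share no library, but the members were chosen with earlier results of these data known. Without EG1 WT replicate 2, 14 members were called lower.

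Adm was at 1.38, 2.41 and 1.93 CPM in EG1 KO, against 4.42, 4.63 and 5.60 in EG1 WT (log2 -1.36 ± 0.20 SE, adjusted p = 9.1e-06). Ndufa4l2 was at 6.78, 4.99 and 5.08 CPM in EG1 KO, against 11.6, 10.3 and 10.7 in EG1 WT (log2 -0.95 ± 0.12 SE, adjusted p = 1.6e-06). Every KO library of both genes was below every WT library. Bhlhe40 showed the next largest fall, at 86.7, 85.5 and 81.1 CPM in EG1 KO, against 137, 138 and 133 in EG1 WT (log2 -0.69 ± 0.042 SE, adjusted p = 1.1e-13). Ndrg1 was at 47.0, 42.5 and 43.9 CPM in EG1 KO, against 63.2, 66.2 and 67.3 in EG1 WT (log2 -0.56 ± 0.053 SE, adjusted p = 3.9e-09). P4ha2 was at 23.0, 22.9 and 21.8 CPM in EG1 KO, against 33.6, 32.6 and 31.5 in EG1 WT (log2 -0.53 ± 0.066 SE, adjusted p = 7.7e-07). None of these groups overlapped. Plod2 was at 70.5, 73.9 and 78.2 CPM in EG1 KO, against 94.1, 98.4 and 96.5 in EG1 WT (log2 -0.38 ± 0.046 SE, adjusted p = 3.9e-07). Bnip3 was at 98.7, 114 and 102 CPM in EG1 KO, against 134, 132 and 133 in EG1 WT (log2 -0.34 ± 0.045 SE, adjusted p = 1.6e-06). Fam162a was at 32.6, 31.5 and 35.2 CPM in EG1 KO, against 43.0, 40.4 and 42.5 in EG1 WT (log2 -0.34 ± 0.060 SE, adjusted p = 0.00019). Groups were again separate for all 3. Pdk1 was at 47.8, 49.1 and 47.7 CPM in EG1 KO, against 61.2, 55.3 and 63.2 in EG1 WT. P4ha1 was at 65.7, 58.4 and 63.5 CPM in EG1 KO, against 77.0, 79.1 and 75.1 in EG1 WT. Ero1l was at 94.2, 98.3 and 112 CPM in EG1 KO, against 125, 123 and 123 in EG1 WT. The log2 fold changes of Pdk1, P4ha1 and Ero1l were -0.32 ± 0.055, -0.30 ± 0.049 and -0.29 ± 0.047, each with KO libraries below all WT libraries (adjusted p = 0.00015, 6.5e-05 and 5.8e-05).

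Smaller falls were called for Ankrd37 (-0.38), Narf (-0.26), Vegfa (-0.14) and Bnip3l (-0.14), and each lost its call when 1 library was left out. This was EG1 WT replicate 3 for Ankrd37 (adjusted p = 0.063) and EG1 WT replicate 2 for Narf and Vegfa (adjusted p = 0.066 and 0.075). For Bnip3l it was any library but EG1 KO replicate 2 (adjusted p = 0.051 to 0.2), and DESeq2 did not call Bnip3l either (adjusted p = 0.12). Among targets not called in EG1 KO were Ddit4 at 180.0, 153 and 160.4 CPM in EG1 KO, against 158, 159 and 166 in EG1 WT (log2 0.030 ± 0.045 SE, adjusted p = 0.76) and Ak4 at 82.2, 86.6 and 81.5 CPM in EG1 KO, against 81.7, 83.9 and 79.6 in EG1 WT (log2 0.030 ± 0.045 SE, adjusted p = 0.77). Their groups overlapped. Higd1a (-0.051), Mif (-0.024), Mxi1 (-0.0037), Plod1 (-0.091), Kdm3a (0.0087), Kdm4b (-0.14), Kdm4c (-0.095) and Car12 (-0.027) were not called either.

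**Figure D4:**
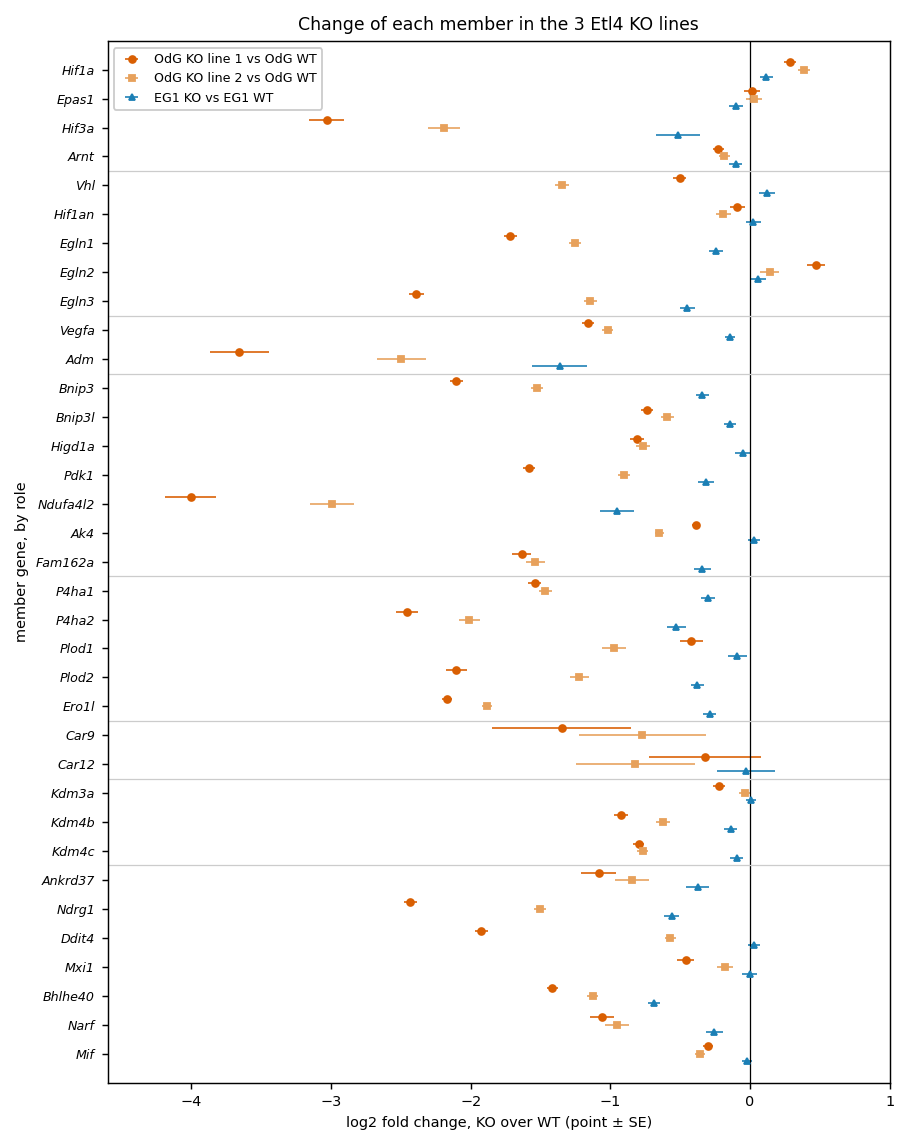
Log2 fold change of each member, KO over WT (horizontal axis; point ± SE), in OdG KO line 1, OdG KO line 2 and EG1 KO, with genes grouped by role. Points of EG1 KO lie nearer 0 than those of both OdG lines for most members, as for Ero1l at -2.17, -1.89 and -0.29.

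The KO effect was tested for a difference between the parental lines in 1 fit over all 12 libraries, as the OdG KO effect minus the EG1 KO effect. OdG had 2 KO lines and EG1 a single KO group, and the error is the spread between libraries within a group. The p-values therefore leave out variation between KO lines, and parental line and KO line cannot be told apart. The KO effect was lower in OdG for 28 of 35 members and higher for 2, where 19.5% and 20.2% of all 14977 genes were called. The difference was at least 2-fold lower for 14 members (3.89% of all genes). The median difference of the members was -0.75, against -0.011 over all genes. The largest differences were those of Ndufa4l2 (log2 -2.55 ± 0.20 SE, adjusted p = 1.4e-11), Hif3a (log2 -2.10 ± 0.20 SE, adjusted p = 6.3e-10), Ero1l (log2 -1.75 ± 0.060 SE, adjusted p = 6e-20), Adm (log2 -1.72 ± 0.28 SE, adjusted p = 8.9e-06) and P4ha2 (log2 -1.71 ± 0.088 SE, adjusted p = 8.4e-16). Hif1a (log2 0.21 ± 0.065 SE, adjusted p = 0.0093) and Egln2 (log2 0.24 ± 0.086 SE, adjusted p = 0.026) were the 2 whose effect was higher in OdG, and single libraries decided both calls. That of Hif1a did not survive dropping OdG WT replicate 1 (adjusted p = 0.082), and that of Egln2 in 7 of 12 fits that each left out 1 library (adjusted p = 0.052 to 0.076). The small difference of Kdm3a (log2 -0.15 ± 0.050 SE, adjusted p = 0.02) was lost in 4 such fits (adjusted p = 0.055 to 0.2), falling in size to log2 -0.092 without OdG WT replicate 1, and with a single KO group (adjusted p = 0.24). In 33 of the 34 members tested in both tables the change was larger in size in OdG KO than in EG1 KO, Epas1 being the exception. The same held for 11152 of the 13630 genes tested in both tables. With the 4 OdG KO libraries as a single group 7 differences were no longer called, among them those of Egln3 (adjusted p = 0.052), Ddit4 (adjusted p = 0.081), Plod1 (adjusted p = 0.057) and Mxi1 (adjusted p = 0.069). Etl4 itself did not differ in its fall between the parental lines beyond the error (log2 0.0022 ± 0.049 SE, adjusted p = 0.98).

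Line 2 differed from line 1 in 22 of 35 members, 18 of them higher in line 2 and 4 lower (18.6% and 19.2% of all genes). At least 2-fold higher were 4 members (4.92% of all genes). Of the 26 targets, 15 were higher in line 2 and 2 lower. The largest differences were those of Ddit4 (log2 1.35 ± 0.048 SE, adjusted p = 6.4e-13; 115 ± 3.73 CPM in line 2 and 45.3 ± 2.39 in line 1, SD, n = 2 each), Egln3 (log2 1.25 ± 0.058 SE, adjusted p = 1.9e-11), Adm (log2 1.16 ± 0.30 SE, adjusted p = 0.0049) and Ndufa4l2 (log2 1.01 ± 0.27 SE, adjusted p = 0.0066). Those of Adm and Ndufa4l2 rest on 13 to 54 counts a library. Both lost their call without line 2 replicate 2 (adjusted p = 0.09 and 0.059), and Ndufa4l2 also without line 1 replicate 2 (adjusted p = 0.096). Ndrg1 (log2 0.93 ± 0.051 SE, adjusted p = 1.7e-10), Plod2 (log2 0.88 ± 0.081 SE, adjusted p = 1.5e-07), Hif3a (log2 0.84 ± 0.16 SE, adjusted p = 0.00051), Pdk1 (log2 0.68 ± 0.048 SE, adjusted p = 5.4e-09) and Bnip3 (log2 0.58 ± 0.050 SE, adjusted p = 7.3e-08) were also higher in line 2. Lower in line 2 were Vhl (log2 -0.84 ± 0.055 SE, adjusted p = 1.8e-09), Plod1 (log2 -0.55 ± 0.088 SE, adjusted p = 8.8e-05), Egln2 (log2 -0.33 ± 0.064 SE, adjusted p = 5e-04) and Ak4 (log2 -0.26 ± 0.029 SE, adjusted p = 1.9e-06). Line 2 also kept more Etl4 than line 1 (log2 0.18 ± 0.043 SE, adjusted p = 0.0032), a call lost on leaving out replicate 1 of line 1 or replicate 2 of line 2 (adjusted p = 0.067 and 0.072).

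Set side by side, OdG WT held the highest level of most members. It had the highest mean of the 5 groups for 28 of 35 members, and for 27 of them both OdG WT libraries lay above all 10 others, as they did for 19.6% of all genes. Egln2 was the 1 member with both OdG WT libraries below all others (17.6% of all genes). The lowest mean was in OdG KO line 1 for 18 members and in EG1 KO for 9. Shares of all genes were not computed for highest and lowest means, so those counts describe the members alone. EG1 WT, which is wild type for Etl4, was below OdG WT for 27 members and above it for 4 (35.4% and 35% of all genes), with a median log2 of -0.73, against -0.0043 over all genes. At least 2-fold lower were 14 members (11% of all genes), and in 28 the EG1 WT libraries were all below the OdG WT libraries (39.6% of all genes). The 2 parental lines were deposited in separate tables, so line and table cannot be told apart here, and EG1 WT and OdG KO are both compared with the same OdG WT libraries. Markers of other cell types moved between the WT groups too. Of trophoblast markers 4 of 6 were lower and 1 higher in EG1 WT, with Cdx2 at 1.23 CPM in EG1 WT and 83.1 in OdG WT, and Krt8 at 3.34 CPM in EG1 WT and 88.5 in OdG WT. Of fibroblast markers 5 of 8 were lower, all at least 2-fold, and 3 higher, 2 of them at least 2-fold. Of ESC markers 4 of 10 were lower and 6 higher. Their part in the WT comparison was not tested.

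Ak4, with Hif3a, had the largest difference. Ak4 was at 81.7, 83.9 and 79.6 CPM in EG1 WT, against 649.6 and 647 in OdG WT (log2 -2.99 ± 0.036 SE, adjusted p = 3.2e-33), while OdG KO kept it at 491 and 497 CPM in line 1 and 411 and 410.2 in line 2. Hif3a (log2 -3.23 ± 0.11 SE, adjusted p = 2.2e-21), Ndrg1 (log2 -1.98 ± 0.044 SE, adjusted p = 1.9e-26), Ero1l (log2 -1.94 ± 0.044 SE, adjusted p = 2e-26), P4ha1 (log2 -1.45 ± 0.045 SE, adjusted p = 1.1e-22), Egln1 (log2 -1.36 ± 0.045 SE, adjusted p = 4.2e-22) and Vhl (log2 -1.32 ± 0.052 SE, adjusted p = 5e-20) were lower in EG1 WT too. The mean of EG1 WT lay between the means of the 2 OdG KO lines in 8 of 35 members and outside them in 27. How often this holds over all genes was not computed, so the count describes the members alone. Members with the other direction were Plod2 (log2 0.49 ± 0.051 SE, adjusted p = 6.2e-10), Car12 (log2 0.93 ± 0.29 SE, adjusted p = 0.0051), Egln2 (log2 0.28 ± 0.067 SE, adjusted p = 0.00054) and Kdm3a (log2 0.093 ± 0.038 SE, adjusted p = 0.032), each higher in EG1 WT. Without OdG WT replicate 2 the calls of Car12 (log2 0.77, adjusted p = 0.062) and Kdm3a (log2 0.040, adjusted p = 0.45) were lost, and that of Kdm3a also without EG1 WT replicate 1 (adjusted p = 0.066). Hif1a (log2 0.029 ± 0.050 SE, adjusted p = 0.62), Epas1 (log2 0.057 ± 0.057 SE, adjusted p = 0.38), Ddit4 (log2 -0.098 ± 0.048 SE, adjusted p = 0.07) and Ankrd37 (log2 0.20 ± 0.10 SE, adjusted p = 0.083) were not called. Ankrd37 was called higher with no filter on low counts (adjusted p = 0.047) and without EG1 WT replicate 2 (adjusted p = 0.028), and Ddit4 was called lower without EG1 KO replicate 1 (adjusted p = 0.032).

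**Figure D5:**
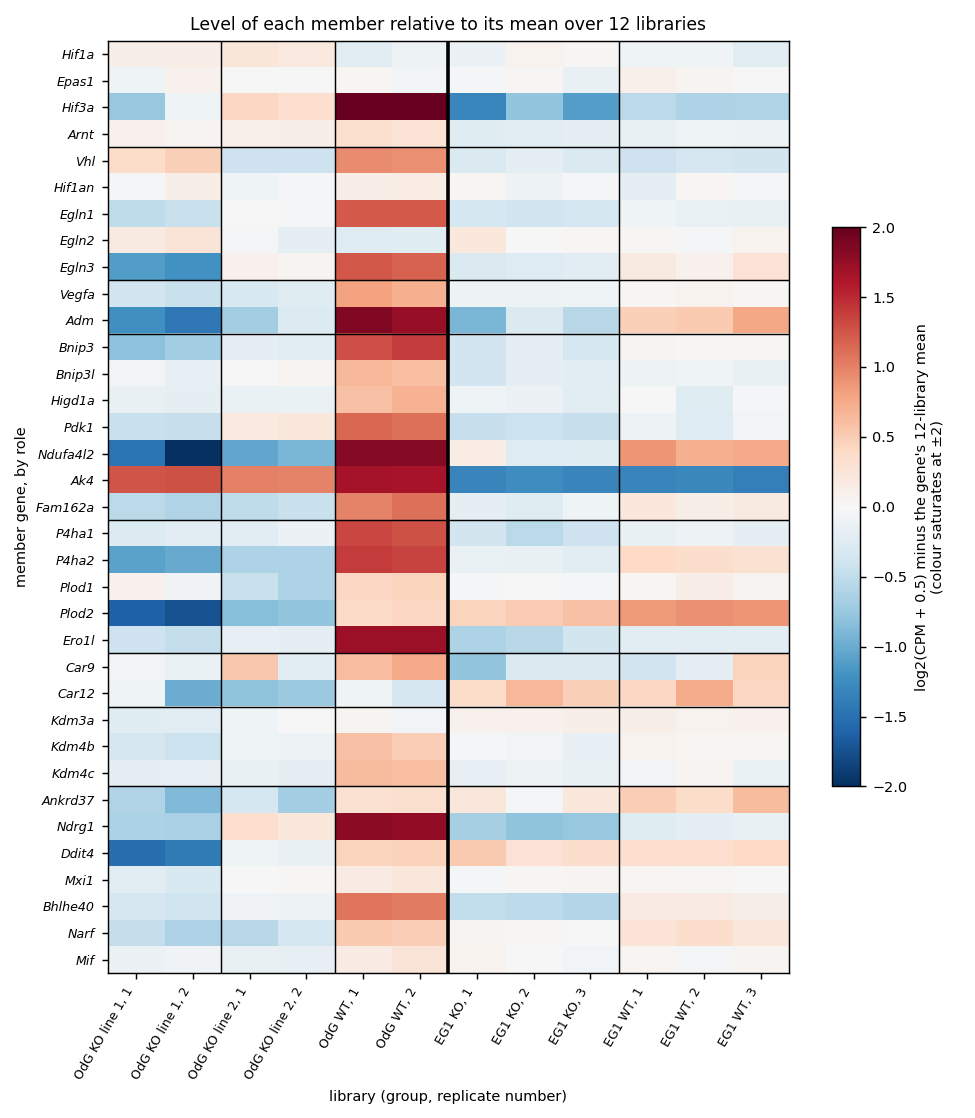
Level of each member (rows, grouped by role) in each library (columns) as log2(CPM + 0.5) minus the gene's mean over the 12 libraries; colours saturate at ±2 and the largest value was 2.55 in size. The 2 OdG WT columns are red for most rows, while Ak4 parts all OdG from all EG1 libraries.

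Other genes of the pathway were taken from lists of partners, regulators and further reported targets. Of 8 genes of the VHL ubiquitin ligase and its enzymes, 6 rose in OdG KO (median log2 0.26), and 0 were called lower by edgeR, by DESeq2 or at an unadjusted p under 0.05. Those that rose included the scaffold gene Cul2 (log2 0.41 ± 0.035 SE, adjusted p = 2.5e-08), the ubiquitin-conjugating enzyme gene Ube2d3 (log2 0.27 ± 0.029 SE, adjusted p = 2.7e-07) and the elongin C gene Tceb1 (log2 0.43 ± 0.049 SE, adjusted p = 6.8e-07). In EG1 KO edgeR called 0 of the 8, where 1 was higher and 0 lower at an unadjusted p under 0.05 and DESeq2 called 0. Of 27 other HIF regulators, 12 rose and 6 fell in OdG KO (median 0.11), and 1 rose and 1 fell in EG1 KO. The chaperone gene Hsp90aa1 (log2 0.29 ± 0.017 SE, adjusted p = 1.6e-10) and the coactivator gene Crebbp (log2 0.54 ± 0.049 SE, adjusted p = 4.9e-08) rose, and Wsb1 (log2 -0.39 ± 0.036 SE, adjusted p = 5.3e-08) fell. Of 33 further reported HIF targets outside glycolysis that could be tested, 20 fell and 6 rose in OdG KO (median -0.38), and 4 of 31 fell and 2 rose in EG1 KO. Falls in OdG KO included the metallothionein gene Mt1 (log2 -0.81 ± 0.032 SE, adjusted p = 8.6e-13), the phosphatase gene Dusp1 (log2 -0.74 ± 0.037 SE, adjusted p = 1.8e-11) and the transferrin receptor gene Tfrc (log2 -0.43 ± 0.022 SE, adjusted p = 2.5e-11). In each list the genes named with fold changes had the lowest adjusted p in OdG KO. Means in line 1 and line 2 were above OdG WT for Angptl4 (17.5 and 17.2 CPM against 10.7), Kdm5b (428 and 476 against 345) and Nt5e (15.9 and 14.1 against 8.19). The OdG counts stand against 30.5% of all genes lower and 29.4% higher, and the EG1 counts against 4.06% and 3.6%.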

How the data were processed

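RNA-seq gene counts came from 12 libraries in 2 tables, 6 OdG and 6 EG1 libraries, with 24421 gene symbols in each. The values are whole-number read counts per gene as the authors deposited them, not normalized. Per the submitters' processing notes, CASAVA, HISAT2 2.1.0, featureCounts 1.6.4 and DESeq2 were used, with the genome build mm10; neither the order of steps nor the annotation and strand setting is stated there. Per the labels' protocols, libraries were made from Trizol-extracted RNA with the NEBNext Ultra kit. Columns were assigned to samples by name and by the table each label names; in the EG1 table the KO columns carry another name than the sample titles.

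Counts were tested with edgeR 4.0.16 (R 4.3.3): low-count genes removed with filterByExpr, TMM normalization, 1 mean per group, and a two-sided quasi-likelihood test with Benjamini-Hochberg adjustment over all genes tested (14413 in OdG, 14016 in EG1, 14977 in the fit over all 12 libraries). The SE of a log2 fold change is its size divided by the square root of the test's F value. Levels in CPM use TMM factors over all 12 libraries, so values of the 2 tables stand on 1 scale that assumes most genes are level between tables. Alternatives were DESeq2 1.42.0 (its test, and its size factors in edgeR), no filter, a replicate block, 1 fit over all libraries, a single KO group, a log2 change of at least 1, and leaving out each library. The script was tested on simulated counts.

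Members and gene lists were chosen with earlier results of these data known. Given library by library were the subunit and sensor genes and, among called targets of at least 5 CPM, the largest changes: 8 in OdG KO, 5 in EG1 KO, and 4 each in the line, KO-effect and WT comparisons. Replicates of a group differed by more than counting noise (chi-square divided by its degrees of freedom, 1.81 to 3.70), so none was merged as a repeat deposit; this does not show separate cultures. Promoter sequences and gene positions came from RefSeq (GRCm38.p6), where 28 of 35 members matched a promoter and 35 a position.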

Additional observations from a re-analysis of the deposited data

Results flagged for a closer look

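In 30 of 35 members the KO effect in OdG differed from that in EG1 at an adjusted p under 0.05 in edgeR's test of the difference, over all 12 libraries (19.5% of all genes were called lower and 20.2% higher). Values are the log2 KO effect in OdG, both lines averaged, minus that in EG1. The error is the spread between libraries within a group, so parental line and KO line cannot be told apart. Differences beyond 1 were found for Ndufa4l2 (-2.55), Hif3a (-2.10), Ero1l (-1.75), Adm (-1.72), P4ha2 (-1.71), Bnip3 (-1.48), Ndrg1 (-1.42), Egln3 (-1.32), Plod2 (-1.29), Ddit4 (-1.29), Fam162a (-1.25), Egln1 (-1.25), P4ha1 (-1.21) and Vhl (-1.06). Smaller negative differences were found for Vegfa (-0.96), Pdk1 (-0.94), Narf (-0.76), Higd1a (-0.75), Kdm4c (-0.70), Kdm4b (-0.64), Plod1 (-0.62), Ankrd37 (-0.60), Bhlhe40 (-0.59), Ak4 (-0.56), Bnip3l (-0.53), Mxi1 (-0.32), Mif (-0.31) and Kdm3a (-0.15). That of Kdm3a was lost in 4 of 12 fits that each left out 1 library. The effect was higher in OdG for Hif1a (0.21) and Egln2 (0.24). Groups held 2 or 3 libraries, too few to look for single libraries that stand apart. ESC markers also differed in how many were called (9 of 10 higher in OdG KO and 2 of 10 in EG1 KO), and their part in these differences was not tested.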

How the results depend on the processing

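Members whose call held under every alternative other than the fold threshold numbered 31 of 32 for line 1 over OdG WT, 28 of 30 for line 2 over OdG WT, 27 of 33 for OdG KO over OdG WT, 17 of 22 for line 2 over line 1, 13 of 18 for EG1 KO over EG1 WT, 23 of 30 for the difference of KO effects and 26 of 31 for EG1 WT over OdG WT. Asking for a log2 change of at least 1 left, by construction, fewer calls: 19 members lower, 0 higher and 1087 genes in all for line 1 over OdG WT, 15 members lower, 0 higher and 1773 genes in all for line 2 over OdG WT, 18 members lower, 0 higher and 1281 genes in all for OdG KO over OdG WT, 0 members lower, 4 higher and 975 genes in all for line 2 over line 1, 1 member lower, 0 higher and 55 genes in all for EG1 KO over EG1 WT, 14 members lower, 0 higher and 968 genes in all for the difference of KO effects and 14 members lower, 0 higher and 3113 genes in all for EG1 WT over OdG WT. With the 4 OdG KO libraries as a single group, 1 member was higher and 4609 genes were called in OdG KO, and 0 members were higher and 3068 genes were called for the difference of KO effects. This setting counts the difference between the OdG KO lines as error, and its share in the lost calls was not tested. DESeq2 called 3407 genes for line 2 over line 1 and 698 for EG1 KO over EG1 WT, against 5454 and 1074 by edgeR; the cause was not tested. Leaving out 1 library at a time gave 29 to 30 lower, 2 higher and 6068 to 7341 genes in all for line 1 over OdG WT, 28 to 29 lower, 1 to 2 higher and 7273 to 8483 genes in all for line 2 over OdG WT, 29 to 30 lower, 2 higher and 7791 to 8028 genes in all for OdG KO over OdG WT, 4 lower, 13 to 19 higher and 3680 to 6291 genes in all for line 2 over line 1, 14 to 18 lower, 0 to 1 higher and 638 to 1213 genes in all for EG1 KO over EG1 WT, 27 to 29 lower, 0 to 2 higher and 5122 to 5914 genes in all for the difference of KO effects and 25 to 28 lower, 2 to 5 higher and 9564 to 10674 genes in all for EG1 WT over OdG WT. In EG1, 638, 672 and 658 genes were called without WT replicates 1, 2 and 3. Where a group then held 1 library, that library is assumed to vary like the others. Under these fits the sign turned in 19 results that were not called, with ranges of Car12 -1.23 to 0.18 and Epas1 -0.065 to 0.097 in line 1 over OdG WT; Epas1 -0.022 to 0.077 and Kdm3a -0.087 to 0.019 in line 2 over OdG WT; Epas1 -0.028 to 0.072 in OdG KO over OdG WT; Car12 -0.999 to 0.41, Car9 -0.28 to 1.14, Epas1 -0.072 to 0.091 and Narf -0.0099 to 0.20 in line 2 over line 1; Car12 -0.13 to 0.11, Ddit4 -0.041 to 0.079, Egln2 -0.015 to 0.10, Hif1an -0.034 to 0.070, Kdm3a -0.0028 to 0.018, Mif -0.056 to 0.0071 and Mxi1 -0.020 to 0.015 in EG1 KO over EG1 WT; Car9 -0.65 to 0.38 and Etl4 -0.016 to 0.020 in the difference of KO effects; Hif1a -0.026 to 0.084 in EG1 WT over OdG WT. Same-numbered libraries gave correlations of deviations from -0.037 to 0.032 over 6 distinct pairs (with 2 replicates a group, 3 further OdG pairs only mirror the first). These are under 0.1 and no label ties the numbers, so the libraries were treated as sharing only a number. With a replicate block, the EG1 KO calls of Hif3a (log2 -0.52, adjusted p = 0.052) and Bnip3l (log2 -0.15, adjusted p = 0.057) were lost, and no other member's call changed. DESeq2 size factors moved the median over all genes by at most 0.0068 (log2), and leaving out the filter on low counts by at most 0.0120. Depth limits Car9 and Car12 most, with 1 to 54 counts a library.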
